A study of Mus musculus with 36 samples.

Results

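The comparison described here was that of Core Circadian Modulator (CCM) against vehicle in unstimulated macrophages of the Bmal1-KO genotype. The 12 libraries were chosen by their labels, as the 6 CCM and the 6 vehicle libraries of the Bmal1-KO macrophages, out of 36 libraries in the series. Bone marrow of C57BL/6 mice was cultured for 7 days with macrophage colony-stimulating factor (MCSF) to give bone-marrow-derived macrophages (BMDMs), and polyA RNA was sequenced after 6 h of treatment. The mice were female and 13 to 17 weeks old. KO macrophages came from LysM-Cre;Bmal1 flox/flox mice, in which the Cre recombinase is driven by the promoter of a myeloid gene, and WT macrophages came from Bmal1 flox/flox mice without Cre. The KO groups used were vehicle (DMSO), 100 µM CCM in DMSO, 100 nM lipopolysaccharide (LPS) with vehicle, and 100 nM LPS with 100 µM CCM, each with n = 6. The WT groups used were vehicle and 100 µM CCM, each with n = 3. The labels do not say whether a replicate number marks 1 mouse. The p-values below come from fits with the replicate number as a block, except where the block is said to be left out. They therefore measure how the differences within a replicate number vary between the replicate numbers, and these may not be separate mice.

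BMAL1, encoded by Arntl, pairs with CLOCK to form the transcription factor that drives the circadian clock. The heterodimer binds E-box sequences and raises the expression of its own repressors, the PER and CRY proteins and the REV-ERB nuclear receptors, which then feed back on it. In macrophages this clock is known for gating the response to bacterial products and cytokines through the day. CCM is a small molecule made to bind a cavity in the PASB domain of BMAL1, the domain through which BHLH-PAS proteins contact partners and ligands. In the KO macrophages the question is which transcripts respond to the compound in cells of a genotype made to delete its intended target.

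Each KO library held 13469262 to 26891002 read pairs on genes. Replicate 6 stood apart from the other replicates in both groups. Its scaling factors (trimmed mean of M values, TMM) were 0.816 in vehicle and 0.774 with CCM, against 1.02 to 1.06 in the other 10 libraries, and the first principal component, 72.1% of the variance, separated it from them. The number of genes called, and that of several lists, is therefore given with and without it. Arntl was found at 3.47, 8.64 and 8.97 CPM (counts scaled to a common library size; lowest, median and highest) in KO vehicle libraries, and at 8.18, 9.71 and 11.1 CPM in WT vehicle libraries. These groups overlap, and the whole-gene count does not separate the floxed exon from the rest of the transcript, so it does not check the deletion. Lyz2, the gene whose promoter drives Cre, was at 8140 to 14810 CPM in KO vehicle and at 13560 to 15750 CPM in WT vehicle libraries. All 10 macrophage markers were detected, with a summed level of 6122 to 6739 CPM in vehicle and 5551 to 6966 CPM with CCM. The lowest value of each group was of replicate 6. Detection alone does not check the macrophage label, since the markers of the other cell types given below were also all detected. The summed neutrophil markers (10 genes) were at 647 to 1325 CPM in vehicle and 507 to 1412 CPM with CCM. Both upper ends were of replicate 6, and the other libraries reached at most 1284 CPM. S100a8 and Retnlg among them were called lower. The list had 1 gene called lower without replicate 1, 0 without replicate 2, 3, 4 or 5 and 4 without replicate 6. The 6 B cell markers summed to 43.9 to 229 CPM in vehicle and 31.4 to 120 CPM with CCM, lower in 5 of 6 pairs. Both upper ends were again of replicate 6, and the other libraries reached at most 167 CPM. The 6 fibroblast and stroma markers summed to 561 to 1567 CPM and 324 to 1309 CPM, also lower in 5 of 6 pairs. The 5 dendritic cell markers summed to 2.596 to 5.55 CPM in vehicle and 1.98 to 5.08 CPM with CCM, lower in 6 of 6 pairs. The mast cell and basophil markers (10.1 to 20.5 CPM and 6.62 to 16.3 CPM) and the eosinophil markers (66.7 to 80.3 CPM and 63.2 to 74.2 CPM) were lower in 5 of 6 pairs. The 5 osteoclast markers summed to 310 and 319 CPM in the libraries of replicate 6, against at most 145 CPM in the others. In bulk RNA, fewer cells of a type and less RNA per cell cannot be told apart, and the part of these markers in the results below was not tested.

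CCM changed 429 of 13799 genes tested in KO macrophages, 3.11% of them, at an adjusted p of at most 0.05 (edgeR quasi-likelihood test with the replicate number as a block, Benjamini-Hochberg adjustment). Of these, 195 rose (1.41% of genes tested) and 234 fell (1.7%). Most shifts were modest, with a median size of 0.30 on the log2 scale among the called genes, 76 of at least 0.5 and 13 of at least 1. Among the called genes were antioxidant genes that rose and genes of cholesterol synthesis, the aryl hydrocarbon receptor pathway and the interferon response that fell. With replicate 6 included, the spread between replicates was far wider than the effect of CCM. The replicate took a median of 87.2% of a gene's variance over all genes and CCM 1.73%, or 69.5% and 25.4% over the called genes. The CPM of both groups overlapped for all but 39 of the 429 called genes, where 0.42% of all genes tested had groups that did not overlap. Neither the variance shares nor the overlap were computed without replicate 6, so how far they rest on it was not tested. Within pairs of the same replicate number, 399 of the 429 genes moved the same way in 6 of 6 pairs and the other 30 in 5 of 6. Of all genes tested, 11.4% moved the same way in 6 of 6. The 429 genes were chosen by a test on these same pairs, which favours a steady direction, so their share is no separate support. The calls rest on this pairing: without the replicate block edgeR called 0 genes (333 at an unadjusted p under 0.05), or 141 when replicate 6 was also left out, while DESeq2 with the block called 530. With the libraries scaled by total counts alone, 118 genes rose and 255 fell.

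The number of genes called also depended on single replicates. It was 729 without replicate 6, 442 without replicate 4, 195 without replicate 1, 169 without replicate 3, 112 without replicate 2 and 94 without replicate 5. The genes called in 5 replicates were then read in the pair that had been left out. When replicate 2 was left out, 112 of 112 called genes moved in the called direction in its pair, against 65.7% of all genes. When replicate 6 was left out, 528 of 729 (72.4%) did so, against 52.4% of all genes. The remaining pairs lay between these, with 80.5% for replicate 4, 93.8% for replicate 1, 97.6% for replicate 3 and 98.9% for replicate 5.

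**Figure D1:**
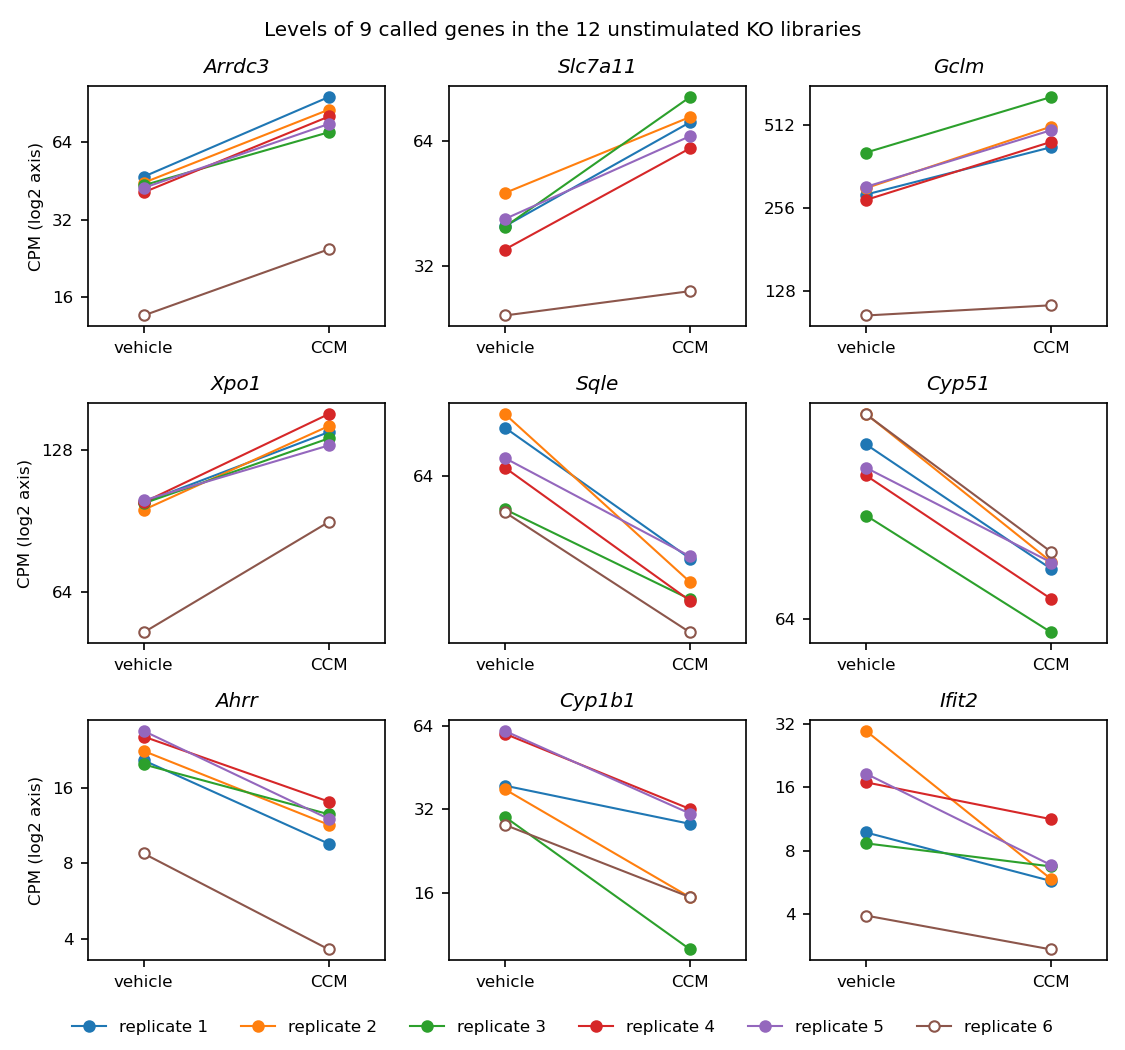
CPM (log2 y axis) of 9 called genes in the 12 unstimulated KO libraries, with the vehicle and CCM libraries of the same replicate number joined by a line and replicate 6 as open circles. Within each gene the 6 lines slope the same way, while the groups overlap in all but Sqle and Cyp51, and replicate 6 lies below the other lines for Arrdc3, Slc7a11, Gclm, Xpo1, Ahrr and Ifit2.

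The clearest single response was in Arrdc3 (chr13:80883384-80896042, mm10), an alpha-arrestin that takes part in the trafficking of membrane receptors. It was found at 13.6, 43.0 and 46.9 CPM (lowest, median and highest) in vehicle and at 24.6, 77.9 and 95.8 CPM with CCM. Both groups overlapped only through replicate 6, which gave the lowest value of each. Arrdc3 rose by 0.89 ± 0.05 on the log2 scale (SE, n = 6 pairs; edgeR adjusted p = 3.07e-05), in 6 of 6 pairs, and its call held with each replicate left out. Txnip, the alpha-arrestin that binds thioredoxin and limits glucose uptake, fell by 0.39 ± 0.08 (edgeR adjusted p = 0.0194), and its call was lost without replicate 3 or 5. The other 3 alpha-arrestins tested did not pass.

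CCM raised genes of the antioxidant response. The transcription factor NRF2 is freed from its inhibitor KEAP1 by oxidants and electrophiles and then drives genes for glutathione synthesis, thioredoxin recycling, heme breakdown and NADPH supply. Of 29 NRF2 genes tested, 14 rose, 1 fell and 14 did not pass, and the median log2 fold change of the list was 0.21, against 0.00 for all genes tested. Without replicate 6 there were 19 that rose and 1 that fell, without replicate 2 there were 7 and 1, and without replicate 5 there were 7 and 0. The regulators themselves did not pass, with log2 fold changes of -0.13 ± 0.06 for Nfe2l2, which encodes NRF2, and 0.05 ± 0.05 for Keap1.

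Genes for glutathione supply were among those with the larger changes. Slc7a11 (chr3:49892526-50443614), the cystine importer that feeds glutathione synthesis, was at 24.3, 39.8 and 47.9 CPM in vehicle and 27.8, 68.3 and 81.5 CPM with CCM, and rose by 0.72 ± 0.08 (edgeR adjusted p = 0.00128). Gclm, the modifier subunit of the enzyme that makes the first bond of glutathione, was at 104, 294 and 407 CPM in vehicle and 114, 468 and 648 CPM with CCM, and rose by 0.59 ± 0.07 (edgeR adjusted p = 0.00133). In both genes the groups overlapped while 6 of 6 pairs were higher. Gclm shares exons with Gm17494, an overlapping gene that rose by 0.78 ± 0.13, and without a stated strand setting their reads cannot be fully separated. Gclc, the catalytic partner of Gclm, had a log2 fold change of 0.21 ± 0.11 and did not pass (edgeR adjusted p = 0.393). Gsr, which regenerates reduced glutathione, rose by 0.32 ± 0.05, and Slc3a2, the heavy chain that carries the Slc7a11 protein to the membrane, rose by 0.28 ± 0.05 with groups that did not overlap.

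Heme and peroxide enzymes rose as well. Hmox1, which opens the heme ring, was at 759, 812 and 961 CPM in vehicle and 826, 1203 and 1552 CPM with CCM, and rose by 0.53 ± 0.07 (edgeR adjusted p = 0.00157). Cat, the catalase that breaks down hydrogen peroxide, rose by 0.49 ± 0.08, in 5 of 6 pairs. Srxn1, which repairs over-oxidized peroxiredoxins, rose by 0.35 ± 0.05, Prdx1, a peroxiredoxin, by 0.17 ± 0.04, and Txnrd1, which reduces thioredoxin, by 0.27 ± 0.06. The NADPH-producing pentose phosphate genes Pgd and Taldo1 rose by 0.36 ± 0.04 and 0.24 ± 0.04, whereas G6pdx, the entry enzyme of the pathway, did not pass at 0.14 ± 0.05 (edgeR adjusted p = 0.219). Nqo1, a quinone reductase and a classical NRF2 target, went the other way. It was at 12.2, 14.1 and 18.1 CPM in vehicle and 8.35, 11.4 and 12.1 CPM with CCM, so the groups did not overlap, and it fell by 0.42 ± 0.09 (edgeR adjusted p = 0.0248).

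Genes of iron handling were called in both directions. Slc40a1, ferroportin, the iron exporter, rose by 0.57 ± 0.08, and Tfrc, the transferrin receptor that brings iron in, fell by 0.30 ± 0.05. The iron transporter Slc11a1 rose by 0.29 ± 0.06. Of 10 metal and iron genes tested these were the only 3 called, and the list median was 0.10. Sgk1 (0.25 ± 0.05), a kinase induced by glucocorticoids, and Dusp1 (0.23 ± 0.05), a phosphatase that switches off MAP kinases, were the 2 called of 12 glucocorticoid-responsive genes, where the median was -0.03. Neither was called without replicate 1, 2, 3 or 5, nor was Dusp1 without replicate 4.

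**Figure D2:**
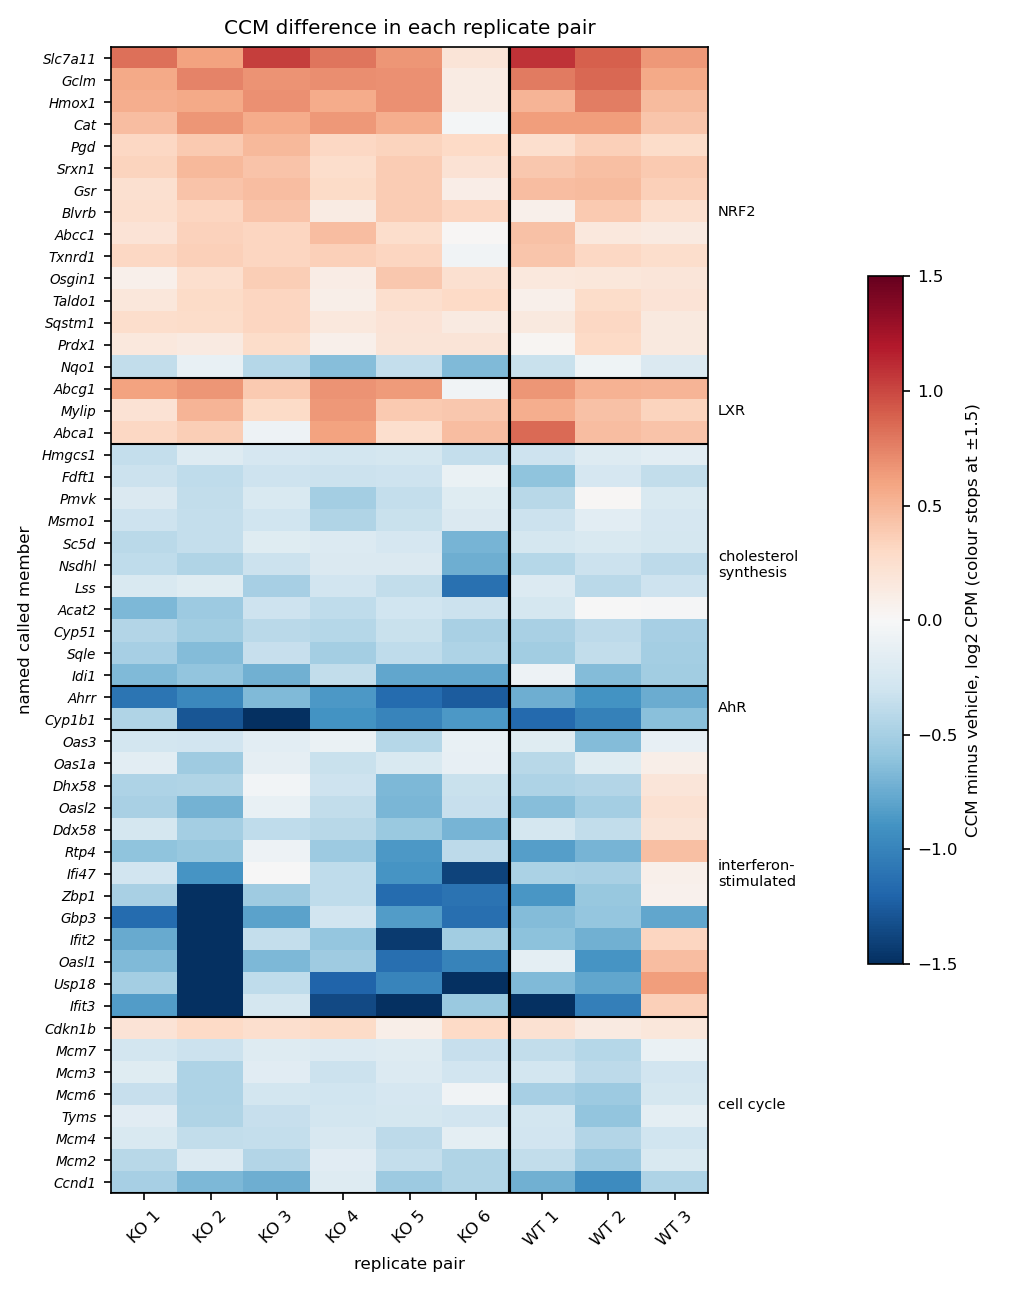
Heat map of the log2 CPM difference, CCM minus vehicle, of named called members of 6 lists (rows) in the 6 KO and 3 WT replicate pairs (columns), with red for higher and blue for lower and colour ending at ±1.5. The NRF2 rows are mostly red apart from Nqo1, the cholesterol synthesis and AhR rows are blue in the KO pairs, and the interferon-stimulated rows are deepest in KO pair 2.

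CCM lowered genes of cholesterol synthesis. Cholesterol is built from acetyl-CoA through mevalonate, squalene and lanosterol, and the enzymes are held at a common level by sterol-sensing transcription factors of the SREBP family. Of 21 synthesis genes tested, 12 fell, 0 rose and 9 did not pass, the log2 fold change was below 0 in 20, and the list median was -0.33. Of 10 genes of SREBP control and sterol uptake tested, 1 rose (Mylip) and 1 fell (Stard4, at -0.25 ± 0.06, not called without replicate 1, 2, 3 or 5), 5 were above and 5 below 0, and the median was -0.01. For the synthesis genes, leaving out single replicates gave 6 genes that fell (without replicate 2 or 5) to 14 (without replicate 6). Early enzymes included Hmgcs1, which makes HMG-CoA, at -0.28 ± 0.04, Pmvk at -0.31 ± 0.06 and Idi1, which isomerizes the isoprene unit, at -0.64 ± 0.08.

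The later, squalene-to-cholesterol steps held genes whose groups did not overlap. Sqle (chr15:59315077-59331192), squalene epoxidase, was at 58.1, 66.3 and 75.5 CPM in vehicle and 42.2, 47.2 and 51.7 CPM with CCM, and fell by 0.47 ± 0.05 (edgeR adjusted p = 0.000836). Cyp51, the lanosterol demethylase, was at 82.4, 95.2 and 105 CPM in vehicle and 62.0, 72.9 and 75.4 CPM with CCM, and fell by 0.43 ± 0.04 (edgeR adjusted p = 0.000469). In both genes every vehicle library was above every CCM library. The call of Sqle held with each replicate left out. Cyp51 shares exons with Akap9.

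Some genes of sterol export and lipid storage rose. Abcg1, which exports cholesterol to lipoprotein particles, was at 66.1, 108 and 135 CPM in vehicle and 64.0, 166 and 184 CPM with CCM, and rose by 0.50 ± 0.08 (edgeR adjusted p = 0.00779), in 5 of 6 pairs, with replicate 6 as the exception. Abca1, the exporter to lipid-poor apolipoprotein, rose by 0.31 ± 0.07, and Mylip, which marks the LDL receptor for breakdown, by 0.41 ± 0.06. These 3 were the called genes of 14 LXR targets, with a list median of 0.16. Abca1 lost its call without replicate 1, 2, 4 or 5 and Abcg1 without replicate 2 or 5. Plin2, a lipid droplet coat protein, rose by 0.26 ± 0.04, Angptl4, an inhibitor of lipoprotein lipase, by 0.59 ± 0.06, and Pnpla2, the triglyceride lipase, by 0.22 ± 0.05, the 3 called of 16 PPAR and lipid storage genes (list median 0.05, with 9 above and 7 below 0). Fasn, fatty acid synthase, fell by 0.27 ± 0.06 and Fads2, a fatty acid desaturase, by 0.57 ± 0.12, the 2 called of 10 fatty acid synthesis genes (list median -0.21). Neither of these was called without replicate 1, 2, 3 or 5, nor was Fads2 without replicate 4.

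The promoter windows of 2 lowered synthesis genes are shown because the CCAAT box, bound by NF-Y and usual beside sterol elements, was present in nearly all genes of this list. Each window runs from 250 bases before to 50 bases after the transcript start (RefSeq, GRCm38.p6), 5′ to 3′ on the strand of the gene, with CCAAT on either strand (CCAAT or ATTGG) in capitals.
Hmgcs1 (chr13:119690101-119690400, plus strand): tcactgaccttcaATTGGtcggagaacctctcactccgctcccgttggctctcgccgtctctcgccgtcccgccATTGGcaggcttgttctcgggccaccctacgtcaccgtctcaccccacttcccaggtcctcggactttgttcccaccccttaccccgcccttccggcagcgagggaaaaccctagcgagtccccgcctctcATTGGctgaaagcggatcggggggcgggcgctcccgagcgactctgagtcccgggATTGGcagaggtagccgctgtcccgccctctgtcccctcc
Idi1 (chr13:8885356-8885655, plus strand): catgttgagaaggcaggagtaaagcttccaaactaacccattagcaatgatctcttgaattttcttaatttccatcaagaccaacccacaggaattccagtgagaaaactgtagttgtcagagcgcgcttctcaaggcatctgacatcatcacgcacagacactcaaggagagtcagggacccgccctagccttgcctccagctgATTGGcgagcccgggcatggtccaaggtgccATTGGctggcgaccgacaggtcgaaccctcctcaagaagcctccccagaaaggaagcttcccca
A gene was counted if any of its windows held the motif. Of 16 synthesis genes tested with a window, 15 held CCAAT (93.8%), and of the 9 called ones with a window 8 did (88.9%). Of all tested genes with a window 42.9% did, and of all RefSeq genes with a window 41.1%. The sterol element (ATCAC, 1 base of any kind, CCAC), searched on both strands, was in 0 of these 16 genes and in 0.211% of all tested genes with a window. The motifs were chosen after the values were seen, and a match describes letters only.

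The aryl hydrocarbon receptor (AhR) is a ligand-activated transcription factor of the same bHLH-PAS family as BMAL1, and it drives genes for the breakdown of foreign compounds. Of the 5 genes of its pathway tested, Ahrr and Cyp1b1 fell, 0 rose and 3 did not pass, and the median log2 fold change was -0.15. Ahrr (chr13:74211118-74292331), the repressor induced by AhR itself, was at 8.75, 21.5 and 26.9 CPM in vehicle and 3.63, 11.7 and 14.1 CPM with CCM, and fell by 0.98 ± 0.09 (edgeR adjusted p = 0.000469). Cyp1b1 (chr17:79706953-79715041), a cytochrome P450 that oxidizes polycyclic compounds and estrogens, was at 28.2, 38.4 and 61.3 CPM in vehicle and 10.01, 21.9 and 32.1 CPM with CCM, and fell by 1.01 ± 0.11 (edgeR adjusted p = 0.00105). Both were lower in 6 of 6 pairs although the groups overlapped, and both calls held with each replicate left out. Tiparp, another AhR target that modifies the receptor, had a log2 fold change of -0.15 ± 0.05 and did not pass (edgeR adjusted p = 0.136), nor did Ahr at 0.36 ± 0.14 (adjusted p = 0.226) or its partner Arnt at -0.01 ± 0.08. Cyp1a1 and Cyp1a2 did not reach the level needed for testing.

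**Figure D3:**
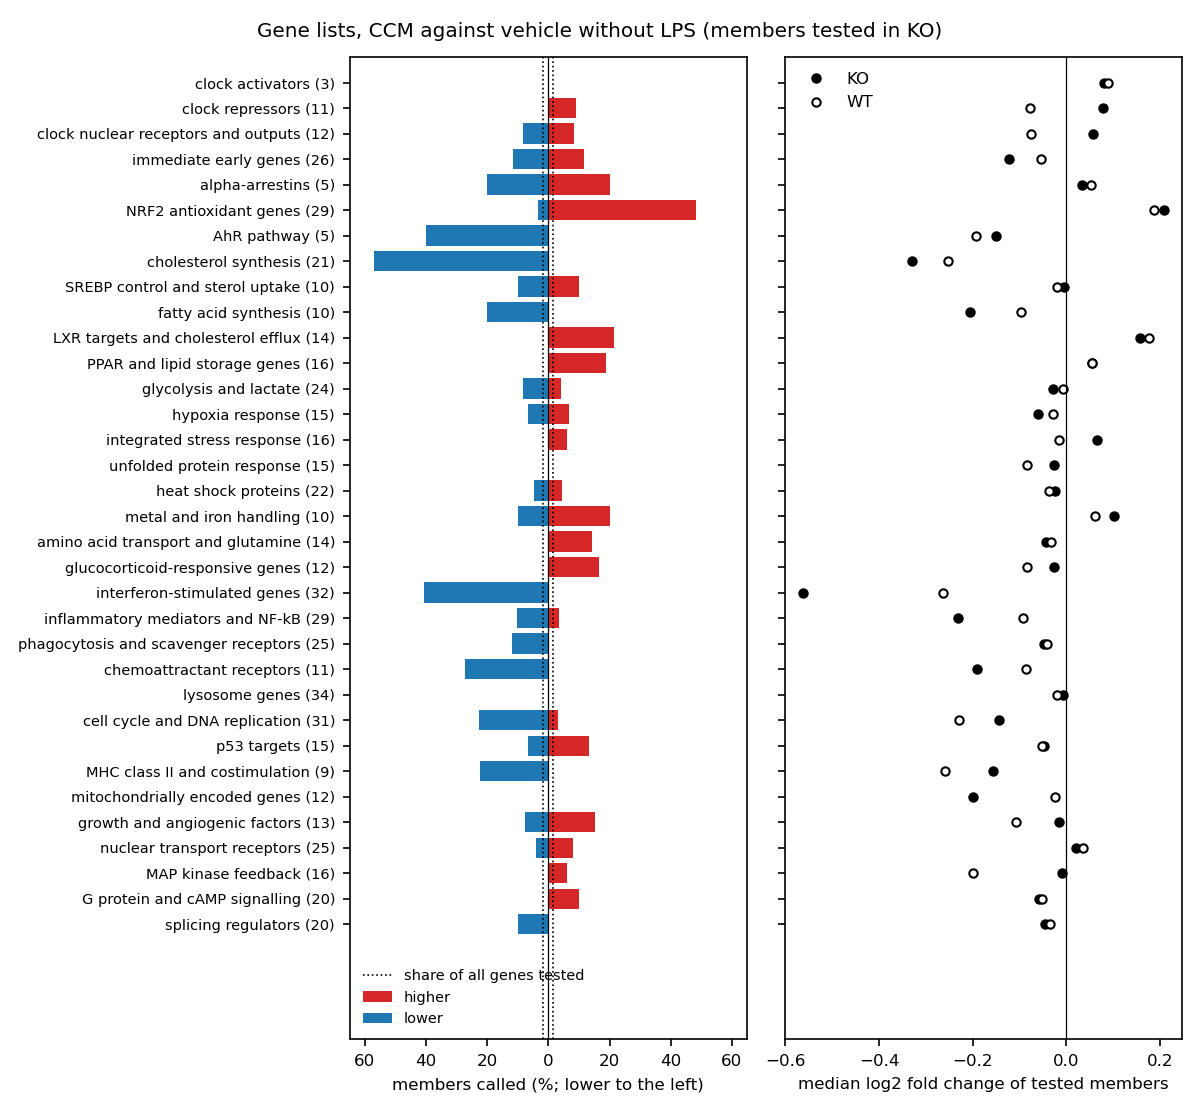
Share of tested members called higher (red, right) and lower (blue, left) with CCM in KO macrophages for each gene list, with the number tested in brackets and the shares of all genes tested as dotted lines, beside the median log2 fold change of each list in KO (filled) and WT (open). The NRF2 list had 14 higher and 1 lower of 29, the cholesterol synthesis list 12 lower of 21 and the interferon-stimulated list 13 lower of 32, with a median of -0.56 in KO and -0.26 in WT.

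CCM lowered the resting level of a share of the interferon-stimulated genes, which encode antiviral proteins. Of 32 tested, 13 fell, 0 rose and 19 did not pass, the log2 fold change was below 0 in all 32, and the list median was -0.56. The size of the shift varied between pairs, with list medians of -0.28, -0.94, -0.18, -0.37, -0.78 and -0.52 for replicates 1 to 6. The count fell to 1 without replicate 5, to 3 without replicate 2 and to 5 without replicate 1, and it was 15 without replicate 6. Beside this, 3 B cell markers reached the level for testing and had a median of -0.49.

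Antiviral effectors and sensors were among the genes that fell. Ifit3 (chr19:34583531-34588731), which binds viral RNA as part of the IFIT complex, was at 4.43, 9.60 and 15.1 CPM in vehicle and 1.48, 3.55 and 6.16 CPM with CCM, and fell by 1.28 ± 0.28 (edgeR adjusted p = 0.0325). Usp18, which removes ISG15 and dampens the interferon receptor, was at 2.11, 4.15 and 5.98 CPM in vehicle and 1.14, 1.62 and 2.30 CPM with CCM, and fell by 1.23 ± 0.25 (edgeR adjusted p = 0.0222). Ifit2 was at 3.92, 13.3 and 29.7 CPM in vehicle, with the highest value in replicate 2, and 2.70, 6.27 and 11.3 CPM with CCM, and fell by 1.07 ± 0.22 (edgeR adjusted p = 0.0273). The groups overlapped in these 3 genes and 6 of 6 pairs were lower. Ifit2 lost its call without replicate 1, 2 or 5, with a change of -0.77 without replicate 2. The RNA sensors Ddx58 (RIG-I) and Dhx58 fell by 0.46 ± 0.06 and 0.38 ± 0.08, and the sensor of Z-form nucleic acids Zbp1 by 0.89 ± 0.18. Gbp3 and Gbp7, guanylate-binding proteins that attack vacuoles of pathogens, fell by 1.003 ± 0.17 and 1.12 ± 0.17. These are close paralogs, and Gbp7, Usp18 and Oasl1 (-1.10 ± 0.23) share exons with another gene. The transcription factor Stat2, which carries the interferon signal, did not pass at -0.14 ± 0.08 (edgeR adjusted p = 0.402).

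Promoter windows of Ifit3 and Gbp3 are shown as examples of called members whose window held the interferon element, which is in capitals. These examples were picked after the values were seen. Gbp3 had 2 windows, of which 1 held the element and is shown. The element was searched on both strands as GAAA, 2 bases of any kind and GAAA, which on the other strand reads TTTC, 2 bases and TTTC, and overlapping matches run together.
Ifit3 (chr19:34583279-34583578, plus strand): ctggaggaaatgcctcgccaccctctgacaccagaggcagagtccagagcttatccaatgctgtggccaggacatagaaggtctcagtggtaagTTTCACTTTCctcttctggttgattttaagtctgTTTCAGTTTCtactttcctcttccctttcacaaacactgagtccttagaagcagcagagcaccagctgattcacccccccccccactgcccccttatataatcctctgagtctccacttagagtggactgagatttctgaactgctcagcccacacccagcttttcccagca
Gbp3 (chr3:142559794-142560093, plus strand): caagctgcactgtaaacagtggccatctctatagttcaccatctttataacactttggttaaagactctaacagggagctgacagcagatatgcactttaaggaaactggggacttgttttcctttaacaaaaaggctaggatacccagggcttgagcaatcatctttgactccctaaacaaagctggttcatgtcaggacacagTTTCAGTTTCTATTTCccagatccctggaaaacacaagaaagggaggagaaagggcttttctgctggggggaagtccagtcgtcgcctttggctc
The element was in 15 of the 24 tested interferon-stimulated genes with a window (62.5%) and in 5 of the 9 called ones with a window (55.6%). Among genes with a window, it was in 3.86% of all tested genes, in 10.1% of lowered genes and in 3.9% of raised genes.

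Of 29 inflammatory and NF-kB genes tested, 3 fell and 1 rose, the log2 fold change was below 0 in 27, and the list median was -0.23. Ptgs2, the inducible cyclooxygenase, was at 8.84, 33.3 and 48.3 CPM in vehicle and 8.95, 16.1 and 34.7 CPM with CCM, and fell by 0.81 ± 0.15 (edgeR adjusted p = 0.0174), in 5 of 6 pairs. The monocyte attractants Ccl2 and Ccl7 fell by 0.77 ± 0.11 and 0.90 ± 0.17, and Tnfaip2 rose by 0.29 ± 0.04. The receptor for Ccl2, Ccr2, fell by 0.51 ± 0.06 and the anaphylatoxin receptor C3ar1 by 0.19 ± 0.04, and 3 of 11 chemoattractant receptors tested fell in all. Among the scavenger and phagocytosis genes Itgam, Msr1 and Scarb1 fell by 0.21 ± 0.05, 0.21 ± 0.04 and 0.24 ± 0.06 (3 of 25), and among 9 MHC class II and costimulation genes H2-Aa and H2-Eb1 fell by 0.21 ± 0.05 and 0.30 ± 0.05. The scavenger list had 0 that fell without replicate 1, 2, 3 or 5, and the MHC class II list 0 without replicate 5. The summed dendritic cell markers, at most 5.55 CPM in vehicle, were also lower in 6 of 6 pairs. Of the 5 markers only 3 reached the level for testing, and 0 were called. Their log2 fold changes were above 0 in 1 and below 0 in 2, with a median of -0.035. The part of dendritic cells in these values was not tested.

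The immediate early genes did not move as a group. Of 26 tested, Btg2, Dusp1 and Fosl2 rose, Npas4, Egr1 and Nr4a1 fell, and the list median was -0.12. Npas4, a bHLH-PAS factor known for activity-dependent transcription in neurons, was at 2.63, 3.64 and 8.47 CPM in vehicle and 1.3, 1.70 and 6.67 CPM with CCM, with replicate 6 highest in both groups. It fell by 0.89 ± 0.18 (edgeR adjusted p = 0.0218) in 6 of 6 pairs, and the call was lost without replicate 1, 2, 3, 4 or 5. Egr1, a zinc finger factor of mitogen signals, fell by 0.48 ± 0.10 and Nr4a1, an orphan nuclear receptor, by 0.40 ± 0.08. None of these 6 genes was called without replicate 2, without replicate 3 or without replicate 5.

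Most clock genes were not called. The share called was 9.09% of the repressors and 16.7% of the nuclear receptors and outputs tested, against 3.11% of all genes tested. None of the 3 activators tested was called, with log2 fold changes of 0.16 ± 0.12 for Arntl, 0.08 ± 0.06 for Clock and 0.07 for Npas2. Of 11 repressors tested 1 rose, and the median was 0.08. Bhlhe41 (DEC2), which competes for E-boxes, was at 94.2, 98.2 and 117 CPM in vehicle and 105, 123 and 146 CPM with CCM, and rose by 0.26 ± 0.05 (edgeR adjusted p = 0.0119), with groups that overlapped and a call lost without replicate 2, 3 or 5. Per1, the light-induced repressor, was higher in 6 of 6 pairs at 0.13 ± 0.05 and did not pass (edgeR adjusted p = 0.227). The log2 fold changes were -0.17 ± 0.14 for Per2, 0.10 for Cry1, -0.06 for Cry2 and -0.01 for Nr1d1, the gene of REV-ERBα, none of them called. Of the 12 clock nuclear receptors and outputs tested, Nampt, the rate-limiting enzyme of NAD salvage, rose by 0.20 ± 0.04 (edgeR adjusted p = 0.0248) and Noct, a rhythmic phosphatase of NADP, fell by 0.30 ± 0.06 (edgeR adjusted p = 0.0183). The call of Nampt was lost without replicate 1, 2, 3 or 5 and that of Noct without replicate 1, 2 or 5. Dbp, a classical output of the E-box, was at -0.09 and did not pass.

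**Figure D4:**
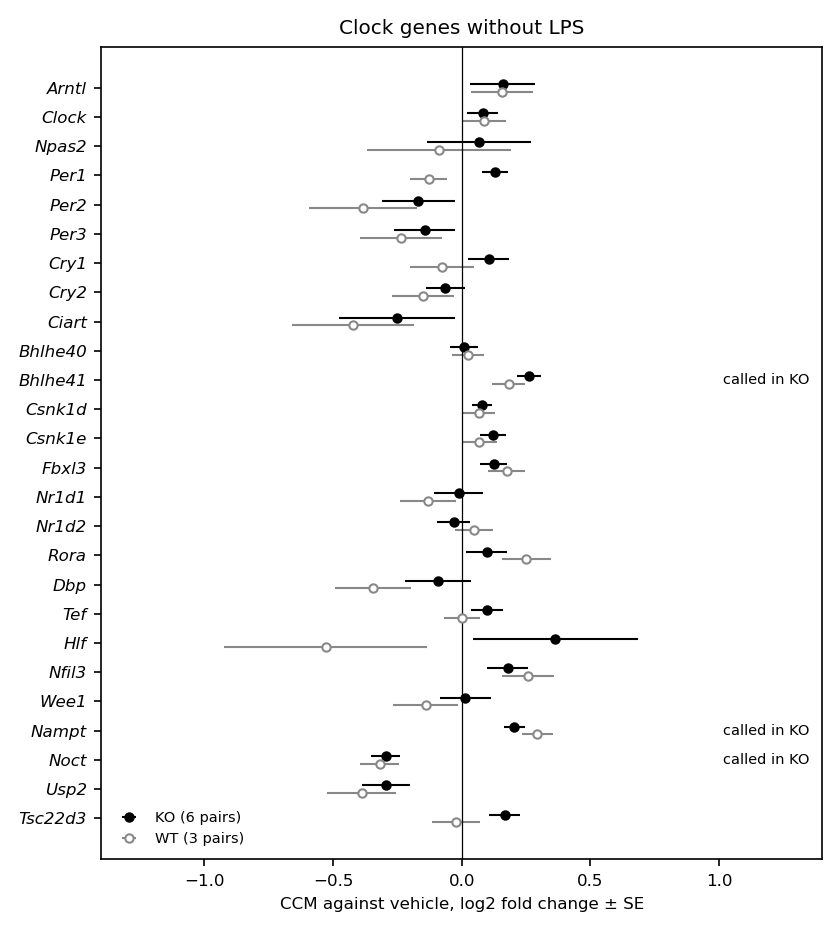
Log2 fold change of CCM against vehicle (x axis, bars are SE) of clock genes without LPS in KO (6 pairs, filled) and WT macrophages (3 pairs, open). Bhlhe41, Nampt and Noct were called in KO macrophages, at 0.26, 0.20 and -0.30, and the other clock genes were not called there.

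The promoter window of Bhlhe41, the called clock repressor, held an E-box, CACGTG, in capitals below (RefSeq, GRCm38.p6, gene strand).
Bhlhe41 (chr6:145865371-145865670, minus strand): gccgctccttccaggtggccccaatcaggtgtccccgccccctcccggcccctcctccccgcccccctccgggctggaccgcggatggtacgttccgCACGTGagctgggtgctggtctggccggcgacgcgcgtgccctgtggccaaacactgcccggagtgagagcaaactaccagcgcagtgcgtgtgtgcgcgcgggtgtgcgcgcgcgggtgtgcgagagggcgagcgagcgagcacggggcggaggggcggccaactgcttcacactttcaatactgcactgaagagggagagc
The E-box is a palindrome and was counted once per position. Among genes with a window, it was in 4 of 7 clock repressors (57.1%), 11.8% of all tested genes, 10.4% of raised and 11.8% of lowered genes.

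Some genes of cell division fell. Of 31 cell cycle and DNA replication genes tested, 7 fell and 1 rose, with a median of -0.15, and the number called with single replicates left out was 1 (without replicate 5) to 11 (without replicate 6). The subunits of the replicative helicase accounted for 5 of the 7, with Mcm2 at -0.34 ± 0.06, Mcm3 at -0.27 ± 0.05, Mcm4 at -0.30 ± 0.05, Mcm6 at -0.28 ± 0.05 and Mcm7 at -0.26 ± 0.05. Mcm7 shares exons with Ap4m1 and Cops6. Ccnd1, the cyclin of early G1, fell by 0.52 ± 0.07 and Tyms, thymidylate synthase, by 0.30 ± 0.07, while Cdkn1b, the cell cycle inhibitor p27, rose by 0.23 ± 0.05. Tubulins, counted after their values were seen, fell in 6 of 12 genes tested with a median of -0.24, among them Tubb6 at -0.41 ± 0.06, Tubb2a at -0.35 ± 0.05 and Tuba1b at -0.23 ± 0.04. Actin and Arp2/3 genes, likewise chosen, fell in 4 of 11, among them Actb at -0.21 ± 0.04 and Actr3 at -0.22 ± 0.05. These families hold near-identical copies whose reads can be split by the counting.

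The other genes with the largest changes included enzymes and transporters. Cdo1, which oxidizes cysteine, was at 4.35, 4.77 and 6.38 CPM in vehicle and 6.62, 9.73 and 10.7 CPM with CCM, without overlap, and rose by 0.82 ± 0.11 (edgeR adjusted p = 0.00241). Arg2, the mitochondrial arginase, was at 2.74, 4.67 and 6.802 CPM in vehicle and 4.39, 8.647 and 11.04 CPM with CCM, and rose by 0.82 ± 0.12 (edgeR adjusted p = 0.00399). It shares exons with Vti1b. Slc16a6, a monocarboxylate transporter that shares exons with Amz2 and Arsg, rose by 0.74 ± 0.08, and Clec4n, dectin-2, a receptor for fungal mannans, by 0.62 ± 0.07. Mturn (0.65 ± 0.08), Slit1 (0.66 ± 0.15), Dnajc28 (0.59 ± 0.12) and Gm20658 (0.73 ± 0.12) completed the 12 raised genes of the naming rule. Among the lowered genes Ms4a4c, a membrane protein of the MS4A family, was at 2.35, 4.97 and 8.24 CPM in vehicle and 0.544, 1.67 and 3.01 CPM with CCM, and fell by 1.54 ± 0.28 (edgeR adjusted p = 0.0131). Tspoap1, which binds the mitochondrial translocator protein, fell by 1.20 ± 0.27 and was at 0 CPM in the CCM library of replicate 6.

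Growth factors, a nuclear exporter and chromatin proteins were also called. Xpo1 (chr11:23256041-23298249), the exportin that carries proteins and RNA out of the nucleus, was at 52.4, 98.7 and 99.9 CPM in vehicle and 90.0, 137 and 152 CPM with CCM, and rose by 0.55 ± 0.05 (edgeR adjusted p = 0.000469). It was 1 of 3 called among 25 nuclear transport genes, with Ipo13 (0.21 ± 0.05) and Kpna2 (-0.18 ± 0.04), and the median of that list was 0.02. Hmgn1, Hmgn2, Odc1, Igha and Ighg3 were picked after their values were seen. Hmgn1 and Hmgn2, nucleosome-binding proteins with many processed pseudogenes, rose by 0.48 ± 0.04 and 0.53 ± 0.05, and Odc1, the first enzyme of polyamine synthesis, by 0.56 ± 0.06. Vegfa, the endothelial growth factor, rose by 0.44 ± 0.05, whereas Pdgfb was at 90.3, 96.5 and 107 CPM in vehicle and 65.9, 69.5 and 77.5 CPM with CCM, without overlap, and fell by 0.48 ± 0.04 (edgeR adjusted p = 0.000469). Igha, an immunoglobulin heavy chain gene, fell by 1.17 ± 0.18 and Ighg3 by 1.77 ± 0.33, both made by B lineage cells, whose summed markers were lower in 5 of 6 pairs.

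Other pathways had calls that were few in number. In the lists of this paragraph with any call, 6.25% to 20% of members were called, against 3.11% of all genes tested. The unfolded protein response (15 genes tested), lysosome genes (34) and mitochondrially encoded genes (12) had 0 called, with medians of -0.03, -0.01 and -0.20. Outside that last list, the mitochondrial ribosomal RNA mt-Rnr2, picked after its value was seen, fell by 0.32 ± 0.05. In the integrated stress response 1 of 16 rose, Sesn2 at 0.28 ± 0.06, and in the heat shock list Hsph1 rose by 0.22 ± 0.04 and Hspa1a, which has the near-identical copy Hspa1b, fell by 0.90 ± 0.21, of 22 tested. Among 24 glycolysis genes Pfkl rose and Pfkp and Aldoc fell, with a median of -0.03. Of 15 p53 targets 2 rose and 1 fell (median -0.05), of 16 MAP kinase feedback genes 1 rose (median -0.01), of 20 G protein and cAMP genes 2 rose (median -0.06) and of 20 splicing regulators 2 fell (median -0.05). The glycolysis and splicing lists had 0 called without replicate 1, 2, 3 or 5.

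The same treatment was examined in WT macrophages, with n = 3 per group. CCM changed 255 of 14024 genes there (1.82%), 98 higher (0.699%) and 157 lower (1.12%). All 429 genes called in KO macrophages were tested in WT, and 426 of them (99.3%) had the same direction, against 67% of the 13658 genes tested in both. The median change in the called direction was 0.30 in KO and 0.29 in WT. The exceptions were Ighg3, Parp14 and Rpl17-ps10. Of the genes called in KO, 145 were called in WT (33.8% of the KO list and 57.3% of the 253 WT genes tested in KO). Read the other way, 241 of 253 genes called in WT (95.3%) had the same direction in KO. For these genes the median change in the called direction was 0.45 in WT and 0.33 in KO. Across the 429 genes Pearson's r of both fold changes was 0.894, across the 253 WT genes 0.508 and across all genes 0.42. These values are a description only, since genes are not independent replicates. Without KO replicate 6, 720 of 728 genes called in KO had the same direction in WT.

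The difference between the genotypes was tested directly. The genotype by CCM interaction was called for 0 of 14905 genes by edgeR, with 312 at an unadjusted p under 0.05, and for 0 by DESeq2 with 182 at that level. Chance alone would give about 745 of the 14905 genes at that level, more than the edgeR test found. With n = 3 per WT group, 0 calls therefore do not show that the genotypes respond alike. Among the 429 genes, 12 were at an unadjusted p under 0.05, and the median SE of the difference was 0.10. Arrdc3 rose by 0.996 ± 0.09 in WT, a difference (KO minus WT) of -0.12 ± 0.11. Slc7a11 rose by 0.88 ± 0.09 (difference -0.17 ± 0.14), Sqle fell by 0.47 ± 0.07 (difference -0.02 ± 0.08) and Ahrr fell by 0.80 ± 0.10 (difference -0.19 ± 0.13). Of the interferon-stimulated genes, Usp18 was at -0.21 ± 0.28 in WT, a difference of -1.01 ± 0.43 (unadjusted p = 0.0326, edgeR adjusted p = 1), and Oasl1 at -0.13 ± 0.26, a difference of -0.97 ± 0.39. In that list 1 of the genes fell in WT, with a median of -0.26 and medians of -0.483, -0.492 and 0.213 in the 3 WT pairs, of which the first 2 lay within the range of the KO pairs. The NRF2 list had 10 that rose and 0 that fell in WT (median 0.19), and the cholesterol synthesis list 0 and 5 (median -0.25). The lists' differences between genotypes were not tested.

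**Figure D5:**
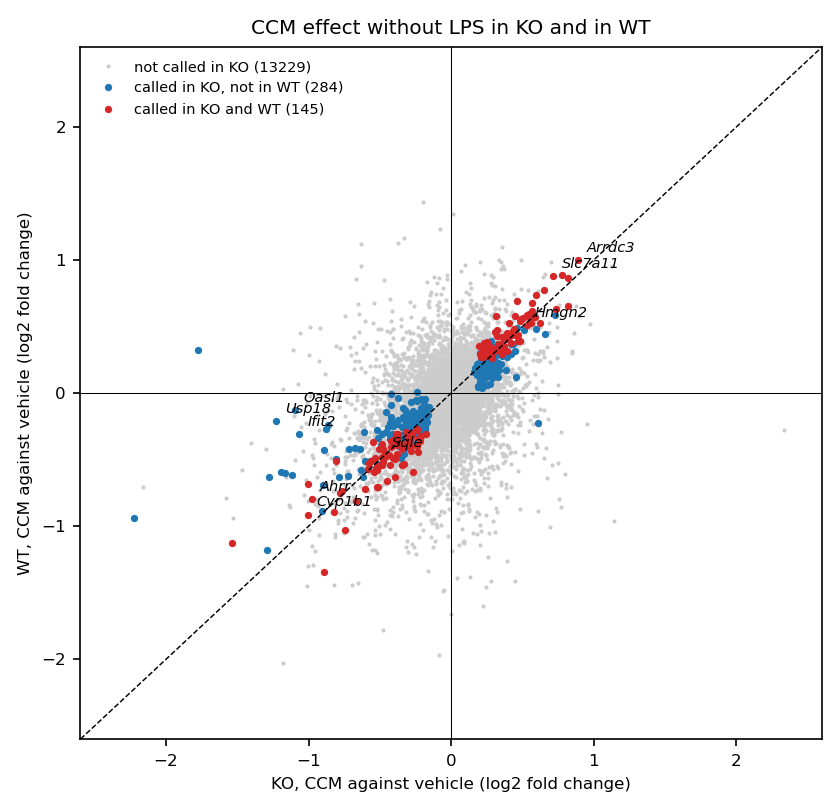
Log2 fold change of CCM against vehicle without LPS in WT (y axis) against KO macrophages (x axis), 1 point per gene tested in both, grey where not called in KO, blue where called in KO and not in WT and red where called in both; the dashed line marks equal values and 4 genes lie outside the axes. Of the 429 genes called in KO, 426 have the same sign in both genotypes.

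CCM was also given together with LPS to KO macrophages, where 777 of 13386 genes changed (5.8%), 223 higher (1.67%) and 554 lower (4.14%). Of the genes called in unstimulated KO macrophages, 424 were tested under LPS, and 324 (76.4%) had the same direction, against 56% of the 12899 genes tested in both. In all, 106 were called in both (25% of the unstimulated list, 14.5% of the 730 LPS genes tested without LPS). Arrdc3 rose by 1.21 ± 0.11 under LPS and Ahrr and Cyp1b1 fell by 1.17 ± 0.14 and 1.14 ± 0.14. Of the 32 interferon-stimulated genes tested without LPS, 22 fell under LPS, and of the 29 inflammatory genes 18 did, with medians of -0.43 and -0.43. Of all genes tested under LPS, 4.14% fell. The cholesterol synthesis list, in contrast, had 2 that fell and a median of -0.08. The NRF2 list had 6 that rose and 0 that fell under LPS, with a median of 0.20. Without LPS that list had 14 that rose, 1 that fell and a median of 0.21.

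The LPS by CCM interaction was called for 81 of 14588 genes (0.555%), 27 with a positive and 54 with a negative difference. It was called for 18 of the 429 genes, and in 17 of these the effect of CCM was smaller or turned under LPS. The 429 genes were chosen by their change in the unstimulated libraries, which also enter this interaction. That choice favours a smaller effect under LPS, so neither count is separate support for a weaker response there. Slc7a11 rose by 0.72 without LPS and was at 0.02 ± 0.07 with it, a difference of -0.66 ± 0.12 (edgeR adjusted p = 0.0221). Pdgfb fell by 0.48 without LPS and was at 0.00 ± 0.07 with it, a difference of 0.50 ± 0.11 (edgeR adjusted p = 0.0478). The exception was Hmgn1, which rose by 0.48 without LPS and 1.15 ± 0.12 with it, a difference of 0.70 ± 0.13 (edgeR adjusted p = 0.0244). The genes Pde7b, Pim1, Slco4a1, Tgfbi and Thbs1 were called in both states with opposite signs, Slco4a1 for example at 0.39 ± 0.08 without LPS and -0.62 ± 0.10 with it. Sqle fell by 0.47 without LPS and was at -0.11 ± 0.07 with it, and that difference, 0.38 ± 0.09, did not pass (edgeR adjusted p = 0.0696).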

How the data were processed

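Per the labels, total RNA of the macrophages was enriched for polyA RNA, and the submitters' processing notes name fastp, HISAT2 2.0.5, featureCounts 1.5.0-p3 and the mm10 genome. The deposited values were raw counts per gene for 54532 genes, whole numbers that the authors did not normalize. The sources used here do not give the strand setting. The table's 36 count columns were read as they stood. The WT columns with LPS entered no fit.

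Counts were tested with edgeR 4.0.16 in R 4.3.3 (filterByExpr by group, TMM, glmQLFit, glmQLFTest, two-sided, Benjamini-Hochberg adjustment at 0.05), with the replicate number as a block. SE is the absolute log2 fold change divided by the square root of the F statistic. CPM use TMM factors. Interactions were terms of fits on the 18 unstimulated or the 24 KO libraries. Alternatives used DESeq2 1.42.0 and limma 3.58.1. The fit was tested on simulated data. Between libraries of a group, chi-square per degree of freedom was at least 4.45, more than counting noise gives, so no libraries were merged as repeats of 1 library; this does not show that they came from separate mice.

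Whether replicate numbers pair the samples was checked from the data: deviations of same-numbered vehicle and CCM libraries correlated at 0.337 to 0.839, different numbers at a median of 0.223, and 6 of 6 correlated best with their own number.

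The members and lists, the rule for named genes (called genes whose mean log2 CPM reached 1 and whose 6 pairs all moved one way, the 12 raised and 12 lowered with the largest change, plus up to 6 called members of each list by p and all clock genes) and the tests were chosen with earlier results of these data known. Further list members, called or not, and gene families were named after their values were seen. Gene coordinates are from the annotation (GRCm38), and promoter windows, matched for 9954 of 13657 tested symbols, are from RefSeq. The results of some single genes are not reported here, although lists count them.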

Additional observations from a re-analysis of the deposited data

Results flagged for a closer look

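In groups of 6, a value was looked at again where it stood apart from the other 5 by Dixon's test at the 95% level, which chance meets in about 1 of 20 groups. Of 159 values tested for the 121 named genes, the gene lists and the libraries, 14 stood apart, where about 8 would do so by chance, and all but 1 of the 14 were of replicate 6. Its TMM factors were 0.816 in vehicle and 0.774 with CCM. The log2 difference between CCM and vehicle in pair 6 was smaller than in the other pairs for Gadd45a (0.0266), Gclm (0.12), Hmox1 (0.12) and Slc11a1 (-0.0333). It was further from 0 for Gm17494 (1.41), Kpna2 (-0.32), Rbm3 (-0.61), Stard4 (-0.57) and Tspoap1 (-4.18), the last of which was at 0 CPM in the CCM library. Pair 6 also stood apart in the list medians of the AhR pathway (-0.589) and the p53 targets (-0.246). The other case was Oasl1 in pair 2, at -2.25. In CPM, 31 named genes had 1 vehicle library apart from the rest, 27 of them replicate 6, and 31 had 1 CCM library apart, 27 of them replicate 6.

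Some named genes responded differently to CCM with and without LPS in KO macrophages, by the interaction term of edgeR. The differences (with LPS minus without) were 0.49 for Aldoc, -0.89 for Arg2, 1.20 for Hspa1a, 0.54 for Mcm3, -1.01 for Pde7b, 0.50 for Pdgfb, 0.72 for Sesn1, -0.66 for Slc7a11, -0.74 for Thbs1 and -0.55 for Tnfaip2. All of these genes were called without LPS in libraries that also enter this term, which favours a smaller effect with LPS.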

How the results depend on the processing

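For CCM against vehicle in unstimulated KO macrophages the replicate block decided the count: without it 0 genes were called, and 0 of 97 named called genes kept their call. The count was 1594 with limma voom and sample quality weights, 843 with no filter beyond 1 count, 88 with all 24 KO libraries in 1 fit and 94 to 729 with 1 replicate left out. Chosen after seeing the data, no block without replicate 6 gave 141 and the fit without replicates 2 and 6 gave 243. For CCM against vehicle in unstimulated WT macrophages it was 8 without the block, 740 with no filter and 260 to 796 with 1 replicate left out (main 255). For CCM under LPS in KO macrophages it was 15 without the block, 1368 with DESeq2, 1897 with no filter and 236 to 1123 with 1 replicate left out (main 777). For the LPS by CCM interaction in KO macrophages it was 1 without the block, 326 with DESeq2, 40 with total counts and 53 without KO replicate 6 (main 81). The genotype by CCM interaction, unstimulated, was 0 under the block, DESeq2, total-count and replicate 6 alternatives. Of the 97 named called genes, RLE scaling kept 97, DESeq2 93, total counts 84 and the 24-library fit 36, and none changed sign. These genes, none of them called, changed sign, with the range over left-out replicates last: Arntl -0.0181 (without replicates 2 and 6); Bhlhe40 -0.00486 (upper-quartile), -0.0161 (total counts), -0.0312 to 0.0486; Dbp 0.0486 (without 2 and 6), -0.149 to 0.00365; Lyz2 -0.01 (total counts), -0.00733 to 0.05002; Npas2 -0.176 (voom), -0.0448 (without 2 and 6), -0.0665 to 0.238; Nr1d1 0.00806 (voom), 0.00604 (24 libraries), -0.043 to 0.0549; Nr1d2 0.0126 (without 2 and 6); Wee1 -0.00154 (upper-quartile), -0.0085 (total counts), -0.0439 to 0.0882. The cause of these shifts was not tested. The median of all genes was 0.00227, -0.0135 and -0.024 under RLE, upper-quartile and total-count scaling.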
